A study of Mus musculus with 32 samples.

Results

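The open midbrain of mouse embryos lacking the cell adhesion molecules Cdh8 and Cdh11 was compared with wild-type midbrain at the level of whole-tissue RNA. The comparison took the 3 midbrain (Mb) columns headed as Cdh8/11 double knockout (DKO) with exencephaly (DKO_Ex) and the 6 wild-type (WT) Mb columns, 9 of the 32 samples of the series. Of 48576 gene identifiers, 13295 had a mean of at least 1 FPKM (fragments per kilobase of transcript, scaled to the mapped fragments of the library) over the 9 samples and entered the test. All embryos were of the B6C3F1 strain at E9.5 and had the forebrain (Fb) and Mb dissected separately. The WT embryos carried no mutant cadherin allele and came from WT matings, whereas the DKO embryos came from matings of Cdh6/8/11 triple heterozygous mice, so genotype and cross cannot be told apart. The mutant alleles are CRISPR/Cas9 deletions of a short stretch around the start codon, the Cdh6 genotype of the DKO embryos is not given in the sources used here, and neither is whether a sample held 1 embryo or several. The other groups drawn on are DKO_CD Mb (3 samples), whose heading and label name Cdh6 and Cdh8, whereas the study's methods describe such embryos as Cdh8/11 DKO with an elongated Mb and no exencephaly, the Cdh6/8/11 triple knockout (TKO) Mb (4 samples), and the WT and DKO_Ex Fb (6 and 3 samples). In 12 DKO columns the heading inside the table names the other DKO group than the record that lists it, and the headings were followed. Grouping by the records would exchange the DKO_Ex and DKO_CD columns.

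Exencephaly is the failure of the cranial neural folds to meet and fuse at the dorsal midline, which leaves the brain open. Closure needs apical constriction by actomyosin, cadherin-based junctions between neuroepithelial cells, planar cell polarity and a supply of proliferating progenitors. The midbrain lies in front of the isthmic organizer, a strip of cells at its border with the hindbrain that secretes Fgf8 and Wnt1 and patterns the tissue around it. Type II cadherins such as Cdh6, Cdh8 and Cdh11 are expressed in overlapping domains of the neural tube and hold like cells together.

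Few single genes differed, and both groups carried the markers of their labelled tissue. With limma on log2(FPKM + 1), 12 of 13295 genes (0.0903%) passed an adjusted p of 0.05, 4 higher and 8 lower in DKO_Ex Mb. The unadjusted p was under 0.05 for 469 higher and 257 lower genes. The 3 DKO_Ex values all lay above the 6 WT values for 267 genes (2.01%) and all below for 132 genes (0.993%), and the median log2 fold change of all genes tested was 0.03. Such genes are said below to lie apart. Defining markers of the midbrain were present in both groups: the engrailed factor En1 ranged from 32.0 to 62.4 FPKM in 8 of the 9 samples, and Otx2, the head and midbrain factor, from 63.3 to 171. The hindbrain gene Hoxb1 was listed at 0 in all 9 samples, while the hindbrain genes Hoxa2 and Hoxb2 reached 0.802 and 0.258 FPKM. The 5 genes tested of the hindbrain and Hox list had a mean log2(FPKM + 1) of 3.34 to 4.40 in WT and 3.62 to 4.24 in DKO_Ex.

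Several libraries stood apart. WT replicate 5 had the lowest level of isthmic genes of the 9 samples and the highest of forebrain genes among WT: En1 was 3.57 FPKM against 32.0 to 59.0 in the other WT samples, Fgf8 was listed at 0 and Lhx2, an eye-field and forebrain factor, reached 9.05. DKO_Ex replicate 2 had high values along all of chromosome 14, described below. WT replicate 6 had medians of -0.16 to -0.11 against the WT mean on every chromosome, and without it the median log2 fold change of all genes was 0. Estimated depth was 3.08 to 3.23 M (mega) fragments in DKO_Ex Mb and 2.38 to 2.925 M in WT Mb (difference 0.54 M, two-sided exact permutation p = 0.0238, the smallest that 3 against 6 samples allow). The part of depth in any result was not tested. With the columns grouped by their records instead of their headings, 5 genes passed, and Gm26825 and Rps3a3 were the 2 among the 12. That grouping sets the 3 columns headed as DKO_CD against WT, so it shares no mutant sample with the main comparison. Without WT replicate 5 the count of genes past the threshold was 8, of which 7 were among the 12, and without DKO_Ex replicate 2 it was 7, of which 4 were among the 12.

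The deletions could not be seen in the whole-gene levels of the targeted cadherins, which include all exons. Cdh8 was 1.14 to 10.1 FPKM in WT (median 4.60) and 1.63, 2.49 and 1.67 in DKO_Ex, inside the WT range. Cdh11 was 17.9 to 28.7 FPKM in WT (median 21.4) and 18.4, 17.6 and 18.7 in DKO_Ex. Their log2 fold changes were -0.87 ± 0.41 (SE) and -0.24 ± 0.14, each with an adjusted p of 0.904 (limma). Cdh6, the third member of the series, was 1.04 to 3.55 FPKM in WT and 3.12, 2.47 and 1.86 in DKO_Ex. None of the 7 type II cadherins tested lay apart, and their median log2 fold change was 0.04. The type I cadherins that hold epithelia together were also inside the WT range: N-cadherin (Cdh2) was 57.9 to 73.1 FPKM in WT and 62.1, 69.3 and 58.8 in DKO_Ex, and E-cadherin (Cdh1) was 1.34 to 2.86 and 2.83, 1.91 and 1.89.

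Of the 12 genes past the threshold, 5 were protein-coding, 6 were annotated as pseudogenes and 1 was a long noncoding RNA. Tecr (chr8:83571698-83607971, GRCm38), the reductase of the last step of very long chain fatty acid elongation, rose. It was 136 to 186 FPKM in WT (median 151) and 279, 302 and 301 in DKO_Ex, a log2 fold change of 0.94 ± 0.11 (SE, adjusted p = 0.0119, limma). All 3 DKO_Ex samples were well above the highest WT sample. 4833420G17Rik (chr13:119462768-119486120), a protein-coding gene with no name of function, rose from 2.47 to 4.79 FPKM in WT (median 3.33) to 10.9, 10.5 and 8.12 (log2 fold change 1.32 ± 0.18, adjusted p = 0.0316).

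The other 3 protein-coding genes fell. Pttg1 (chr11:43420250-43426251) encodes securin, which restrains separase until sister chromatids part. It was 69.6 to 120 FPKM in WT (median 92.8) and 30.1, 29.3 and 40.1 in DKO_Ex (log2 fold change -1.45 ± 0.16, adjusted p = 0.0119, limma). Lamb2 (chr9:108479736-108490530), the laminin beta 2 chain of basement membranes, was 17.2 to 21.5 FPKM in WT (median 18.8) and 11.5, 10.2 and 11.1 in DKO_Ex (-0.74 ± 0.11, adjusted p = 0.0405). Its call was lost when any 1 of the 9 samples was left out (adjusted p 0.0684 to 0.255). Ccdc127 (chr13:74350309-74365783), a coiled-coil protein, was 22.7 to 43.0 FPKM in WT (median 32.2) and 14.3, 9.27 and 10.5 in DKO_Ex (-1.42 ± 0.20, adjusted p = 0.0405), and kept its call in 1 of the 9 fits that left out a sample.

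The long noncoding RNA Gm26825 (chr5:5781530-5783636) was 7.92 to 19.3 FPKM in WT (median 13.7) and listed at 0 in all 3 DKO_Ex samples (adjusted p = 0.000441, limma), so no fold is given. It kept its call in all 9 fits that left out a sample, as did the pseudogene Gm6472. Zfp125 (chr12:20877084-20921262), a zinc finger gene annotated as an unprocessed pseudogene, was 2.54 to 6.18 FPKM in WT (median 4.04) and 12.8, 15.7 and 12.4 in DKO_Ex (log2 fold change 1.55 ± 0.21, adjusted p = 0.0278). Rpl3-ps1, Pttg1, Gm12816 and Tecr kept their calls in 8, 7, 7 and 6 of the 9 such fits, Rps3a3 in 3, Gm7993 and Zfp125 in 2, and 4833420G17Rik in 1.

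**Figure D1:**
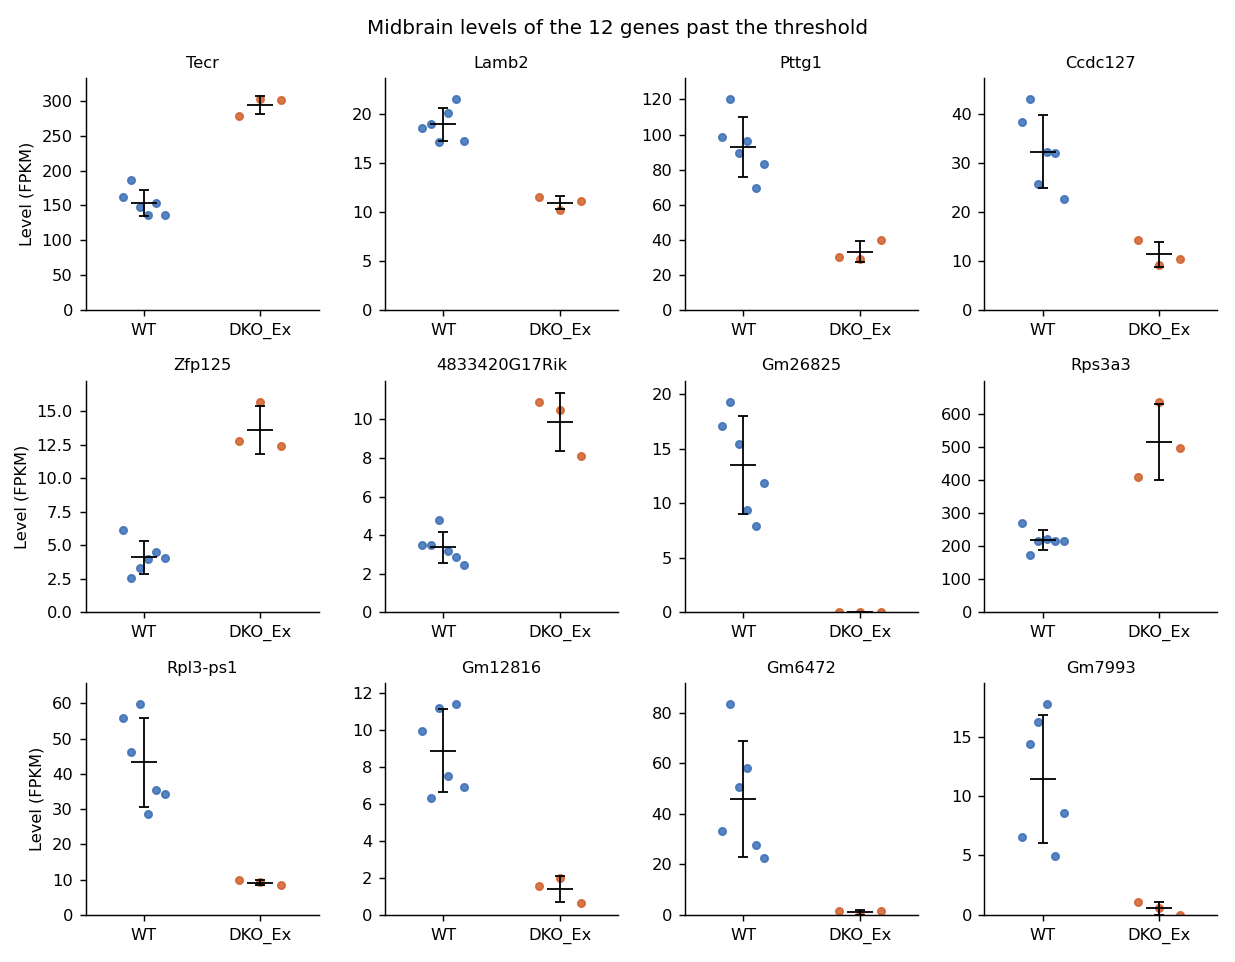
Levels in FPKM (y axes, each starting at 0) of the 12 genes past the threshold in each of 6 WT (blue) and 3 DKO_Ex (orange) Mb samples, with the mean and SD as a bar. In each panel the 3 DKO_Ex points lie apart from the 6 WT points, above them in 4 genes and below them in 8.

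Most of these 12 genes also separated the same way in the forebrain of the same groups. In Fb, the 3 DKO_Ex values lay beyond the 6 WT values in the same direction for 9 of the 12, the exceptions being Zfp125, Ccdc127 and Lamb2. Of the 13178 genes that averaged 1 FPKM or more in these Fb samples, 1.46% lay above and 2.25% below in this way. Tecr, for example, was 132 to 173 FPKM in WT Fb and 263 to 288 in DKO_Ex Fb, and Pttg1 was 57.4 to 94.7 and 17.4 to 28.6. Lamb2 was 9.19 to 17 FPKM in WT Fb and 12.6 to 21.7 in DKO_Ex Fb, with no separation. Mb and Fb samples may come from the same embryos, which the labels do not state. A limma interaction term between genotype and tissue passed the threshold for 0 of 13349 genes, with 518 at an unadjusted p under 0.05. This fit took the samples as independent, and with replicate number as a block 1 gene passed. With 3 mutant samples per tissue, a count this low does not show that effects are equal in Mb and Fb.

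The same genes were also read in the Mb of the other mutants, which share the WT samples as controls. For 5 of the 12 (Gm26825, Rpl3-ps1, Tecr, Rps3a3 and Lamb2) the 3 DKO_CD values lay beyond WT in the same direction, and for 4 (Tecr, Gm12816, Rps3a3 and 4833420G17Rik) the 4 TKO values did. Over all genes, 2.24% lay above and 1.14% below WT in DKO_CD Mb, and 1.21% and 0.524% in TKO Mb. Since the 12 genes were chosen against the same WT samples, these counts are a description only. Tecr was 229 to 293 FPKM in DKO_CD Mb and 246 to 337 in TKO Mb. Pttg1 spread widely in DKO_CD Mb, from 28.4 to 118 FPKM, and Zfp125 was 2.12 to 7.92 there. Embryos of both DKO groups came from the same kind of mating, so a direct test of DKO_Ex against DKO_CD Mb was also made. It passed 6 of 13338 genes (0.045%), none of them among the 12, and 864 genes had an unadjusted p under 0.05. The 6 were Gm10060, Gm9174, Gm20302, Snhg9, Gm12271 and Gm23472, 4 of them processed pseudogenes, and each was listed at 0 in all samples of 1 DKO group while the WT Mb samples themselves reached down to 0. For Gm10060, DKO_Ex was 1895 to 3078 FPKM, DKO_CD was listed at 0 and WT ran from 0 to 3818.

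Because pseudogenes were so frequent among the calls, their parent genes were read beside them. A processed pseudogene is a copy of a spliced mRNA put back into the genome, and where copy and parent are nearly identical in sequence a short read may fit both, so each level is uncertain by itself. Of 816 processed pseudogenes tested, 1 passed the threshold as higher and 4 as lower, beside 0.0903% of all genes in either direction, and their median log2 fold change was -0.10. Of them 3 (0.368%) lay apart as higher and 30 (3.68%) as lower, against 2.01% and 0.993% of all genes. The stretches below are 150 aligned bases of each pair, taken where differences are densest, from the GENCODE M21 transcripts on GRCm38, with the bases that differ between copy and parent in capitals. They are shown because so few bases tell copy and parent apart. Rps25-ps1 (chr6:145266400-145266777, plus strand) copies Rps25 (chr9:44407139-44410427, plus strand), a protein of the small ribosomal subunit, with 4 differences in 375 aligned bases (98.9% identity).
Rps25-ps1: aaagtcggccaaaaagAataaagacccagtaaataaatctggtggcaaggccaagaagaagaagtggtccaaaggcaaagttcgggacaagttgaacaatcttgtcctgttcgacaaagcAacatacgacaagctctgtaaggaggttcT
Rps25: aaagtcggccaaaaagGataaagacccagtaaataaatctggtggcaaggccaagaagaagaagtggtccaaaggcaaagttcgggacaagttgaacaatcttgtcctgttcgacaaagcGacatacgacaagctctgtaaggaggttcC
Rps3a3 (chr13:108670603-108671397, plus strand) copies Rps3a1 (chr3:86137940-86142702, minus strand), also of the small subunit, with 8 differences in 791 bases (99.0% identity).
Rps3a3: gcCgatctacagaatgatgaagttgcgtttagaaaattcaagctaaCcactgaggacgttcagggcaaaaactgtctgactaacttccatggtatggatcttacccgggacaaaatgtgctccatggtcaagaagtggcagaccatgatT
Rps3a1: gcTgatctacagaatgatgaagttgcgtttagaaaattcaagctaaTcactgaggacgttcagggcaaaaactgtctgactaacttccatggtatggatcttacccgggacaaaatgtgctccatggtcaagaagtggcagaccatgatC
Rpl3-ps1 (chrX:13202571-13203780, plus strand) copies Rpl3 (chr15:80077791-80091868, minus strand), a large subunit protein, with 2 differences in 1209 bases (99.8% identity).
Rpl3-ps1: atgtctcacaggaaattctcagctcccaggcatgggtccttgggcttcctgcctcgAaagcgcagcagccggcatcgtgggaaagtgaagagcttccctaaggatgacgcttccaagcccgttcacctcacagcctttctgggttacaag
Rpl3: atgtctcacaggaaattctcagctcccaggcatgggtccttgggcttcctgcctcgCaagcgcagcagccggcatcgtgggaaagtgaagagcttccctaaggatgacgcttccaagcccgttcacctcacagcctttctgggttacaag
Gm6472 (chrX:152909505-152910155, minus strand) copies Rps7 (chr12:28630854-28635953, minus strand), of the small subunit, with 3 differences in 582 bases (99.5% identity).
Gm6472: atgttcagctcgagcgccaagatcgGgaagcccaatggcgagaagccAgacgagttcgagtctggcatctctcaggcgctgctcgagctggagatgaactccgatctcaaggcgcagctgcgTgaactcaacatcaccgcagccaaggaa
Rps7: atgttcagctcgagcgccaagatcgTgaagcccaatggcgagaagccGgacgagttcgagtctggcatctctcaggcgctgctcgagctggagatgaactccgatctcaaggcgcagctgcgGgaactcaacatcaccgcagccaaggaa

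In the first pair, copy and parent lay apart in opposite directions and their sums overlapped between groups. Rps25-ps1 was 318 to 521 FPKM in WT (median 441) and 702, 756 and 770 in DKO_Ex, while Rps25 was 291 to 531 in WT (median 349) and 198, 166 and 211 in DKO_Ex. Neither passed the threshold (log2 fold changes 0.81 ± 0.15 and -0.92 ± 0.18, adjusted p = 0.150 and 0.193, limma). The sum of both was 710 to 994 FPKM in WT and 899 to 982 in DKO_Ex, inside the WT range.

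In the other pairs the copy passed the threshold and the parent did not. Rps3a3 rose from 174 to 270 FPKM in WT (median 215) to 410, 636 and 497 in DKO_Ex (log2 fold change 1.22 ± 0.15, adjusted p = 0.0204, limma), with Rps3a1 at 47.5 to 67.2 and 44.4 to 73.6, and the sum lay apart at 222 to 332 against 459 to 680. Rpl3-ps1 fell from 28.6 to 59.7 FPKM (median 40.7) to 9.76, 9.29 and 8.46 (-2.08 ± 0.22, adjusted p = 0.0103), and Rpl3 was 1051 to 1239 in WT and 1128 to 1183 in DKO_Ex. Gm6472 fell from 22.7 to 83.4 FPKM (median 41.8) to 1.57, 0 and 1.57 (-4.51 ± 0.43, adjusted p = 0.00557), and Rps7 was 985 to 1350 and 1025 to 1177. In these latter pairs the copy held a small share of a large sum, and the sums overlapped between groups.

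A second Rpl3 copy and a copy of another gene completed the set. Gm12816 (chr4:112955075-112956286), 97.6% identical to Rpl3, fell from 6.31 to 11.4 FPKM (median 8.73) to 1.57, 1.99 and 0.625 (log2 fold change -2.06 ± 0.25, adjusted p = 0.0147, limma). Gm7993 (chr5:95974240-95975623), 95.3% identical to Odc1, the ornithine decarboxylase of polyamine synthesis, fell from 4.95 to 17.7 FPKM (median 11.5) to 1.06, 0.558 and 0 (-2.94 ± 0.39, adjusted p = 0.0278). Odc1 itself was 253 to 326 FPKM in WT and 276 to 326 in DKO_Ex.

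**Figure D2:**
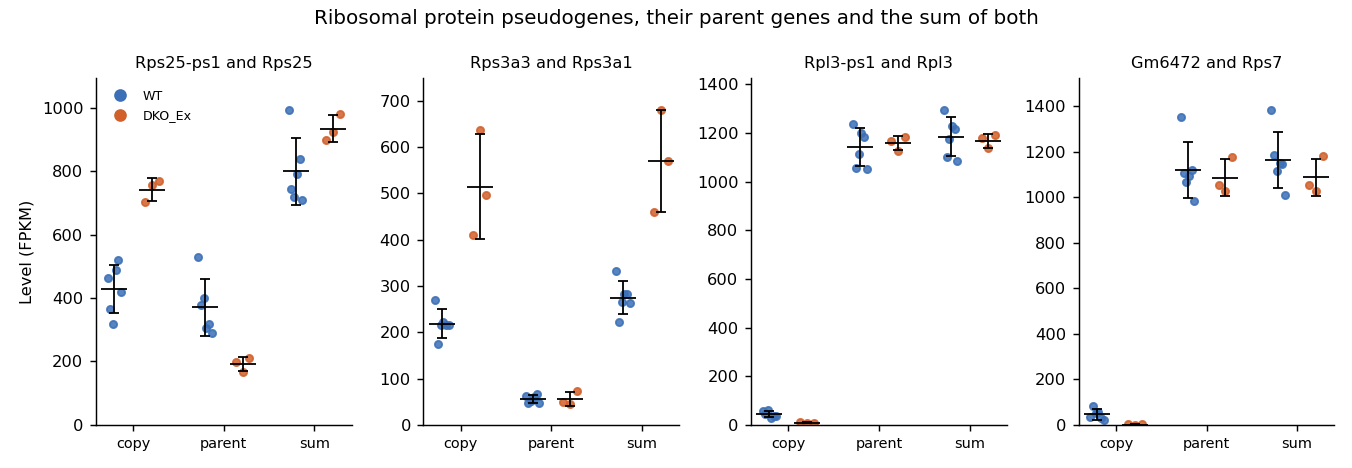
Levels in FPKM (y axes from 0) of 4 pseudogenes (copy), their parent genes and the sum of both in the 6 WT (blue) and 3 DKO_Ex (orange) Mb samples, with mean and SD. Rps25-ps1 and Rps25 separate in opposite directions with an overlapping sum, whereas for Rps3a3 the sum separates too, at 459 to 680 in DKO_Ex against 222 to 332 in WT.

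The genes next in order of p did not pass, and are given as values. Of the 10 with the smallest p among higher genes, Lpar2, a receptor for lysophosphatidic acid, was 2.30 to 2.76 FPKM in WT and 5.62, 7.10 and 4.67 in DKO_Ex (log2 fold change 0.93 ± 0.16, adjusted p = 0.106, limma). Gcdh, a mitochondrial dehydrogenase of lysine breakdown, was 4.49 to 8.74 and 12.5, 11.3 and 17.8 (1.12 ± 0.21, adjusted p = 0.150), and Dlg4, a synaptic scaffold protein, was 11.9 to 18.3 and 28.0, 35.1 and 23.0 (0.85 ± 0.16, adjusted p = 0.150). In DKO_CD Mb, Lpar2 was 5 to 6.48 FPKM and Gcdh 11.4 to 15.2, close to DKO_Ex, and Dlg4 was 12.2 to 15.2, close to WT. The log2 difference of DKO_Ex from DKO_CD was 0.02 for Lpar2 and 1.02 for Dlg4, neither past the threshold (adjusted p = 0.992 and 0.358). Also in this group were the phosphatase Acp1, the ciliary transport gene Ift27, the secreted factor Serpinf1, 1810032O08Rik, Rps25-ps1, the smooth muscle actin Acta2 and the chaperone Hspa8, with log2 fold changes of 0.54 to 1.31.

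Among the 10 lower genes nearest the threshold, Fxyd5, a regulator of the sodium pump, was 4.95 to 6.36 FPKM in WT and 1.72, 1.04 and 2.68 in DKO_Ex (log2 fold change -1.24 ± 0.19, adjusted p = 0.0652, limma). Gsta4, a glutathione transferase that detoxifies lipid aldehydes, was 61.1 to 87.7 and 44.5, 38.5 and 45.2 (-0.75 ± 0.12, adjusted p = 0.0693), and was 30.7 to 35.6 in DKO_CD Mb. Ciapin1, which serves iron-sulphur cluster assembly, was 46.6 to 60.2 and 34.9, 34.7 and 33.9 (-0.62 ± 0.10, adjusted p = 0.104). Nsg2, an endosomal protein of young neurons, was 15.3 to 25.3 in WT and at most 11 in all 3 DKO_Ex samples (-0.90 ± 0.16, adjusted p = 0.150). The histone gene Hist2h2ac and the pseudogene Bloc1s2-ps were listed at 0 in all 3 DKO_Ex samples and were at most 10.6 and 16.5 FPKM in WT. AC149090.1, 4933404O12Rik, Polr3gl and Gm5611 made up the rest.

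Along the chromosomes, one library differed over a whole chromosome. In DKO_Ex Mb replicate 2, the median difference from the WT mean over 463 genes of chromosome 14 was 0.54 on the log2(FPKM + 1) scale, with 90.5% of these genes above the WT mean and a median linear ratio of 1.49. Its medians on the other chromosomes were -0.03 to 0.07, and DKO_Ex replicates 1 and 3 both had a chromosome 14 median of 0.05. DKO_Ex replicate 2 of the Fb showed the same, with a median of 0.52 over 460 genes, 91.5% above the WT mean and a ratio of 1.46. The other 30 samples of the series had chromosome 14 medians of -0.11 to 0.07. The shift covered all 7 windows of 20 Mb along the chromosome, at 0.51 to 0.64 in Mb and 0.41 to 0.63 in Fb. DNA was not measured in these samples, and the labels do not say whether the 2 libraries come from 1 embryo.

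The chromosome 14 shift moved group means. Over all 3 DKO_Ex samples the median log2 fold change of its 463 genes was 0.20, and 22 of them (4.75%) lay apart as higher and 1 as lower, but 0 passed the threshold with limma (44 higher and 2 lower at an unadjusted p under 0.05). Without replicate 2 the median was 0.03, and without replicate 1 or 3 it was 0.30 or 0.29. None of the 12 genes past the threshold lies on chromosome 14, and leaving that chromosome out, a choice made after seeing the data, gave the count of 12 again. Among the genes named here, Bmp4, Fgf17, Spry2, Fdft1, Tnfrsf10b, Otx2 and Gm9174 lie on it. Without replicate 2 the log2 fold changes of the first 5 were 0.83, 1.07, 0.63, 0.55 and 0.47, against 0.78, 1.36, 0.92, 0.57 and 0.51 with all 3. Those of Otx2 and Gm9174 were -0.23 and 3.17, against 0.01 and 3.12.

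**Figure D3:**
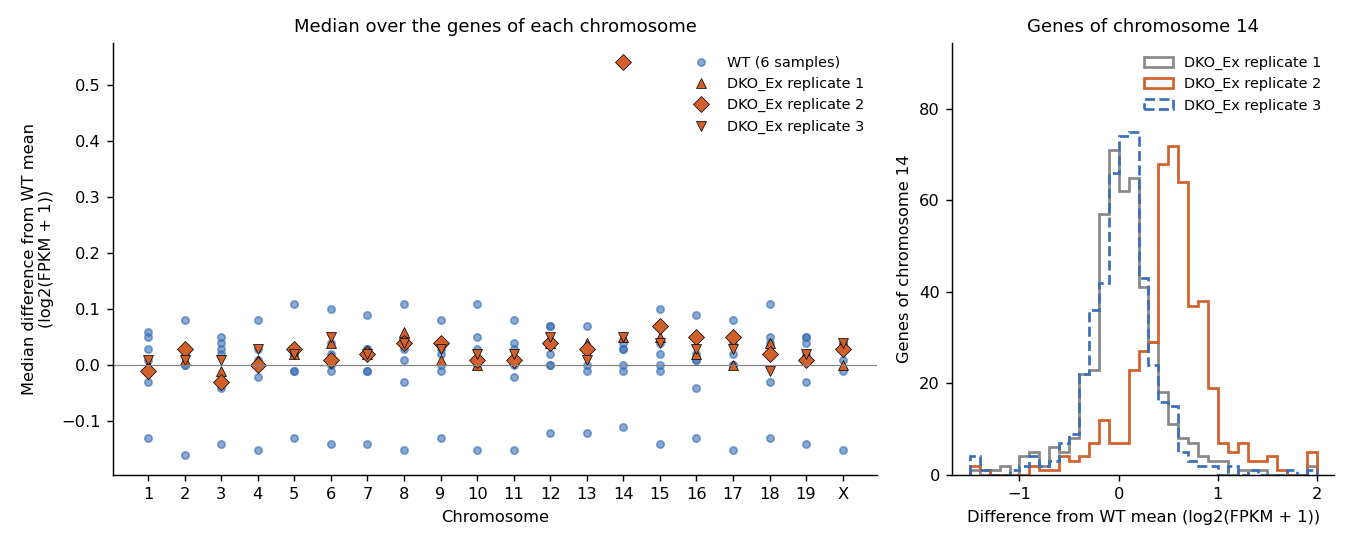
Left, the median difference from the WT mean in log2(FPKM + 1) (y axis) over the genes of each chromosome (x axis) in the 6 WT and 3 DKO_Ex Mb samples, where DKO_Ex replicate 2 reaches 0.54 on chromosome 14 and WT replicate 6 is the lowest sample on every chromosome. Right, histogram of the same difference (x axis) for the genes of chromosome 14 (y axis, number of genes) in the 3 DKO_Ex samples, where values beyond the ends of the axis are drawn at the ends and replicate 2 is shifted as a whole.

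On chromosome 8, which carries Cdh8 and Cdh11, 23 of 646 genes (3.56%) lay apart as higher and 5 as lower. Within 20 Mb of these cadherins it was 13 of 280 as higher (4.64%), against 10 of 366 in the rest of the chromosome (2.73%) and 2.01% of all genes. Shares also varied between other chromosomes. Chromosomes 12, 13 and 15 had 15 of 469, 16 of 497 and 16 of 490 genes (3.27%) apart as higher, and chromosome 1 had 5 of 877. Tecr lies 15.4 Mb from them, Ciapin1 4.2 Mb, Gcdh 14.1 Mb and Lpar2 29.2 Mb. Sequence variants were not analysed here.

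Gene groups were described by their members, with the median of a list set beside 0.03 for all genes and its members apart beside 2.01% and 0.993%. No member of the lists below passed the threshold other than Tecr and Lamb2. The 13 signals of the isthmic organizer had a median of 0.49, with all 13 above 0 but 0 apart. Fgf8, the organizer's main ligand, was 0 to 24.6 FPKM in WT (median 13.8) and 14.6, 22.8 and 16.3 in DKO_Ex (log2 fold change 0.97 ± 0.85, adjusted p = 0.948, limma). Its relative Fgf17 was 0 to 20.3 (median 6.44) and 15, 24.4 and 11.2, and Spry2, a feedback inhibitor of Fgf signalling, was 3.83 to 35.1 (median 15) and 26.3, 42.8 and 19.8. The mean level of the list, in log2(FPKM + 1), was 1.81 in WT replicate 5, 3.20 to 4.21 in the other WT samples and 3.91 to 4.36 in DKO_Ex. Without that library the median was 0.26, and without DKO_Ex replicate 2 it was 0.34. The other fits that left out a sample gave 0.49 to 0.72, and grouping by the records gave 0.30.

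The median of the midbrain and isthmus transcription factors depended on the same library. Their median was 0.26 over 17 genes, 0.05 without WT replicate 5 and 0 when grouped by the records. En1 was 3.57 to 59.0 FPKM in WT (median 41.8) and 43.4, 57.7 and 62.4 in DKO_Ex, and Pax5, another isthmic factor, was 3.90 to 26.0 (median 17.6) and 25.7, 30.2 and 23.8. Pax3, a factor of dorsal progenitors and neural crest, lay apart as lower at 11.4 to 23.1 FPKM in WT (median 12.6) against 10.3, 9.86 and 10.2 (log2 fold change -0.50 ± 0.23, adjusted p = 0.904, limma). Roof plate and dorsal genes had a median of -0.17 over 25 genes, 18 of them below 0, with 1 gene apart in each direction. The median was -0.09 without WT replicate 5, -0.04 without DKO_Ex replicate 3 and 0.09 when grouped by the records.

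**Figure D4:**
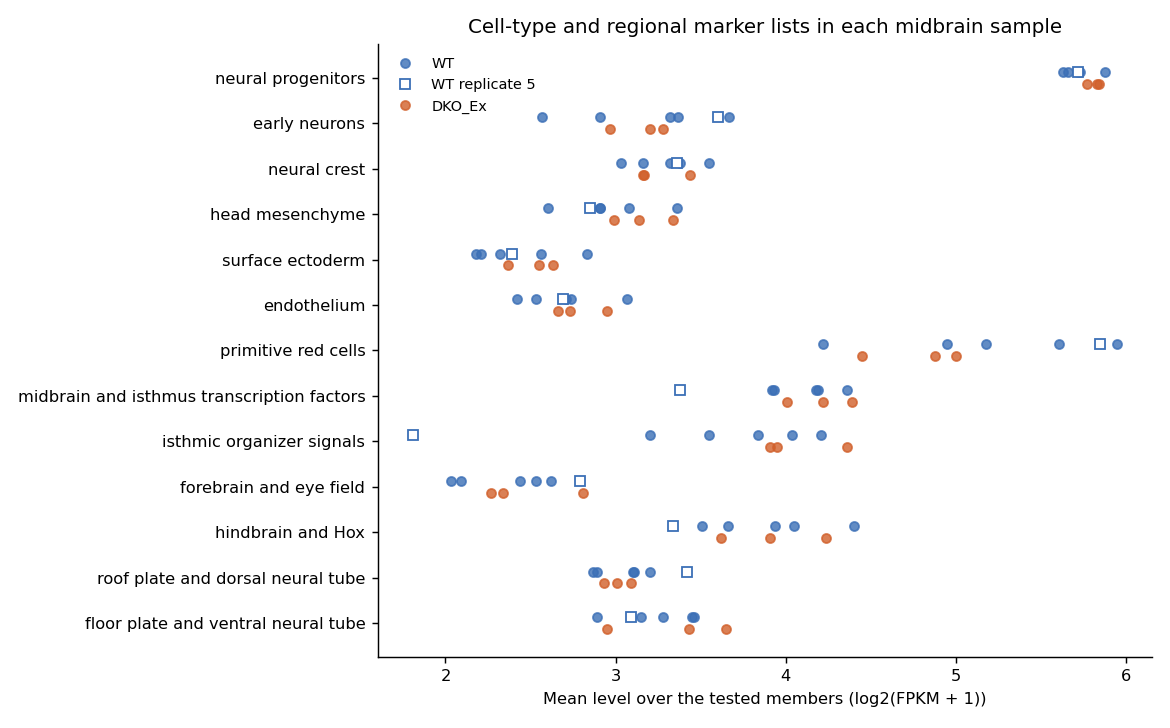
Mean level over the tested members in log2(FPKM + 1) (x axis) of 13 cell-type and regional marker lists (y axis) in each WT (blue; replicate 5 as an open square) and DKO_Ex (orange) Mb sample. DKO_Ex points fall within the range of the WT points or close to it in every list, and WT replicate 5 is the lowest sample for both isthmus lists, at 1.81 for the organizer signals.

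For Fgf signalling beyond the isthmus, 2 of 11 ligands and receptors lay apart, both higher. Fgf15, a ligand made by midbrain progenitors, was 25.5 to 37.4 FPKM in WT (median 27.3) and 50.8, 73.5 and 42.5 in DKO_Ex (log2 fold change 0.86 ± 0.19, adjusted p = 0.336, limma). All 3 DKO_Ex samples were above every WT sample, yet the call was not reached. Fgf15 was 30.1 to 63.0 FPKM in DKO_CD Mb and 39.6 to 58.5 in TKO Mb, and the difference of DKO_Ex from DKO_CD was 0.14 (adjusted p = 0.955). Fgfrl1, a receptor without a kinase domain, was 7.79 to 16.3 in WT (median 13) and 18.7, 23.7 and 18 in DKO_Ex (0.72 ± 0.24, adjusted p = 0.793). The 21 feedback and target genes had a median of 0.25, and 0.10 without WT replicate 5.

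Hedgehog, Bmp and Wnt lists had at most 1 member apart in each direction. Gli1, the transcription factor that reports Hedgehog activity, was 5.96 to 14.5 FPKM in WT (median 11.5) and 23.8, 21.6 and 22.1 in DKO_Ex (log2 fold change 1.04 ± 0.25, adjusted p = 0.451, limma), with 12.4 to 18.3 in DKO_CD Mb. Gas1, a co-receptor for Shh, lay apart as lower at 42.1 to 58.1 against 40.5, 36.9 and 34.5. The median of the 18 Hedgehog genes was 0.03.

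In the Bmp list (median -0.01 over 28), the ligand Bmp4 lay apart as higher, at 0.850 to 2.95 FPKM in WT (median 1.49) and 4.33, 3.27 and 3.24 in DKO_Ex. Its antagonist Nog lay apart as lower, at 4.82 to 7.20 (median 5.77) and 2.90, 4.34 and 2.06 (log2 fold changes 0.78 ± 0.26 and -0.78 ± 0.19, adjusted p = 0.788 and 0.479, limma). In DKO_CD Mb, Bmp4 was 3.19 to 6.52 and Nog 3.25 to 4.39 FPKM, and the log2 differences of DKO_Ex from DKO_CD, -0.24 and -0.28, did not pass (adjusted p = 0.888 and 0.864). The Wnt ligands, receptors and modulators had a median of 0.08 over 30 genes, and the beta-catenin targets 0.15 over 19, 14 of them above 0, which was -0.03 when grouped by the records. Among Wnt genes, the receptor Fzd10 lay apart as lower (40.2 to 60.9 against 35.4, 38.8 and 35.4), and the target and G1 cyclin Ccnd1 as higher (103 to 128 against 155, 162 and 133). Hes6, a factor that promotes neuronal differentiation, in the Notch list, and the Yap targets Ccn2 and Amotl2 lay apart as lower, in lists with medians of 0.02 and 0.01.

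For closure itself, the 55 genes whose mouse mutants have exencephaly gave a median of 0.02 over the 52 tested, with 0 apart as higher and 3 as lower. Among them were Nog and Cited2, a transcriptional co-regulator, which was 74.0 to 108 FPKM in WT (median 78.0) and 69.7, 67.4 and 54.5 in DKO_Ex. The 21 planar cell polarity genes had a median of 0.07 and 0 apart, and Vangl2, its core membrane protein, was 28.7 to 36.3 in WT and 33.6, 29.0 and 26.0 in DKO_Ex. The 19 nectins and apical polarity genes (median -0.02) and the 10 protocadherins (0.09) also had 0 apart.

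Actomyosin was the closure list with most members apart, 4 of 36 (Acta2, Tpm4, Tagln and Rock1), all higher and with a list median of 0.07. Acta2, the actin of smooth muscle, was 4.54 to 10.9 FPKM in WT (median 7.95) and 18.7, 24.7 and 15.5 in DKO_Ex (log2 fold change 1.23 ± 0.23, adjusted p = 0.171, limma). Tpm4, a tropomyosin of nonmuscle actin filaments, was 141 to 172 and 219, 236 and 176 (0.46 ± 0.11, adjusted p = 0.479). Tagln, an actin-binding protein of smooth muscle, was 7.25 to 16.0 and 16.8, 17.6 and 16.5, and Rock1, the kinase that activates myosin II, was 4.85 to 6.49 and 7.16, 8.58 and 6.8. In DKO_CD Mb these were 8.34 to 22.2 (Acta2), 217 to 261 (Tpm4), 15.6 to 25.2 (Tagln) and 6.69 to 7.37 FPKM (Rock1), each overlapping DKO_Ex. Vessel walls and mesenchyme also make Acta2 and Tagln. Endothelial and head mesenchyme genes had list levels of 2.66 to 2.95 and 2.99 to 3.34 in DKO_Ex against 2.42 to 3.07 and 2.60 to 3.36 in WT. Their part in the result was not tested.

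**Figure D5:**
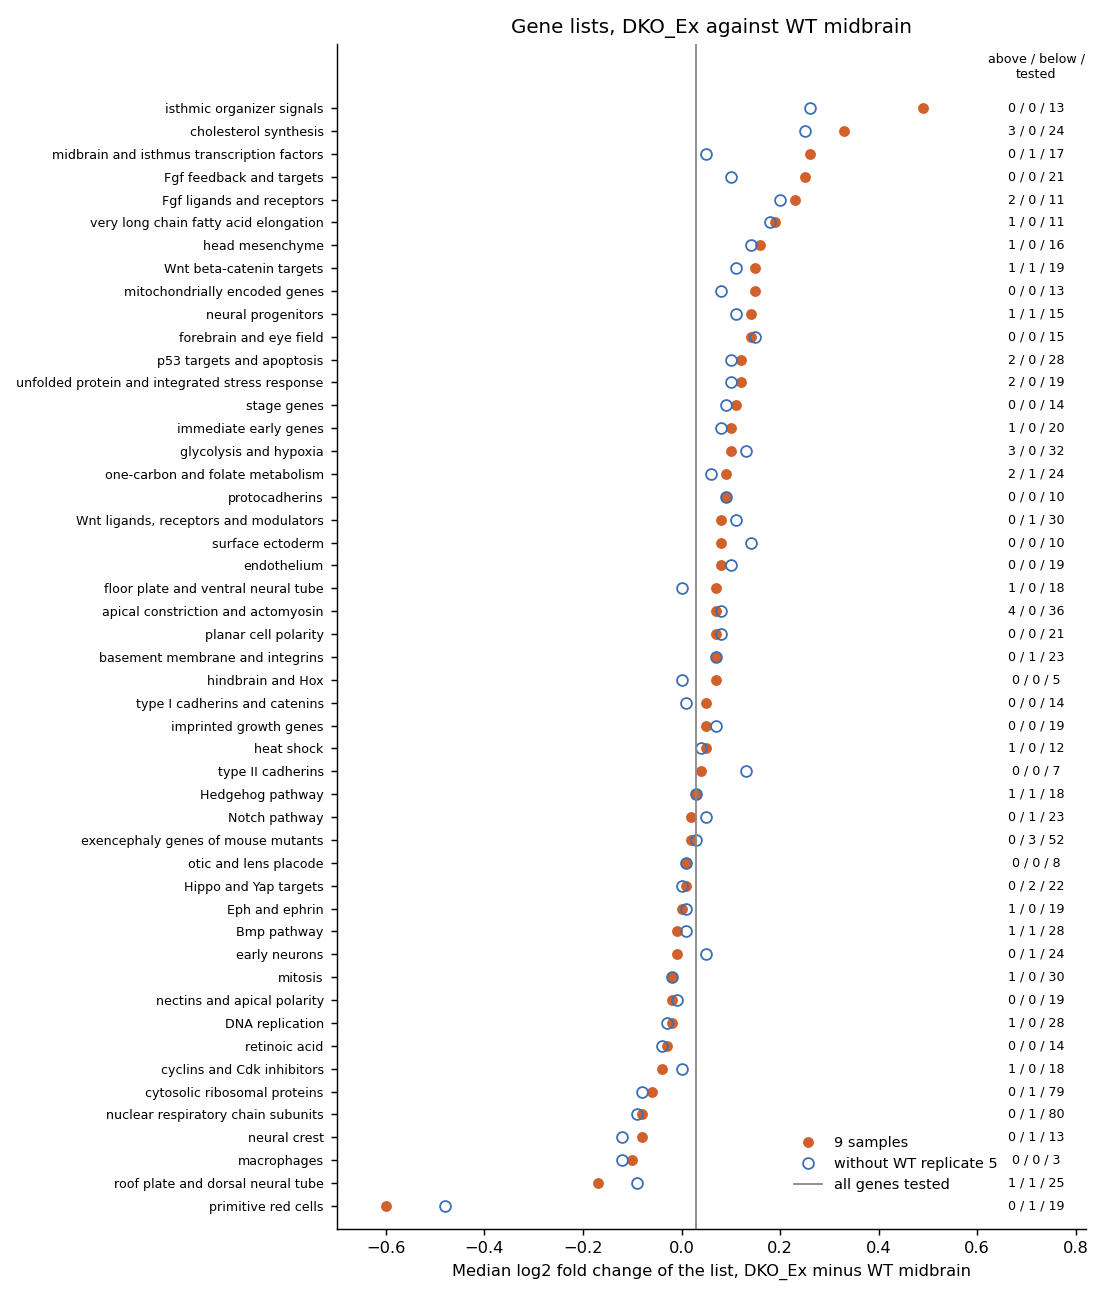
Median log2 fold change (x axis, DKO_Ex minus WT Mb) of each gene list (y axis) over all 9 samples (orange) and without WT replicate 5 (open blue), with the median of all genes as a line at 0.03. The numbers at the right give members apart as higher, apart as lower and tested, and the isthmic organizer signals, at 0.49 with 0 of 13 apart, drop to 0.26 without that sample.

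The levels of the cell-type lists overlapped between groups when columns were grouped by their headings. The neural progenitor list was at 5.63 to 5.88 in WT and 5.77 to 5.84 in DKO_Ex on the log2(FPKM + 1) scale. Its median was 0.14 over 15 genes and 0.03 when grouped by the records, with 1 gene apart in each direction. Sox2, the progenitor factor, lay apart as higher at 115 to 136 FPKM (median 126) against 142, 148 and 148 (log2 fold change 0.22 ± 0.08, adjusted p = 0.830, limma). Pax3, given above, lay apart as lower. Early neuron genes were at 2.57 to 3.67 in WT and 2.97 to 3.28 in DKO_Ex, neural crest at 3.03 to 3.55 and 3.16 to 3.44, and surface ectoderm at 2.18 to 2.83 and 2.37 to 2.63. All of these ranges overlapped. Grouped by the records, the list medians were 0.40 for neural crest, 0.59 for head mesenchyme (3 of 16 apart, all higher) and 0.56 for surface ectoderm, against -0.08, 0.16 and 0.08 by the headings. The head mesenchyme list had 15 of 16 genes above 0 and a median of 0.16, with Alx4, a factor of frontonasal mesenchyme, apart as higher at 4.10 to 6.54 FPKM (median 4.61) and 8.80, 8.49 and 6.68. Macrophage genes were too low for most to be tested, 3 of 15 passing the filter, with Csf1r at most 0.426 FPKM and Adgre1 listed at 0.

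Primitive red cell genes had a median of -0.60, with 18 of 19 genes below 0. The median was -0.35 without DKO_Ex replicate 3, -0.85 without WT replicate 1 and -0.26 when grouped by the records. In whole tissue, fewer cells of a type and less RNA per cell cannot be told apart. Its level ran from 4.22 to 5.95 in WT and from 4.45 to 5 in DKO_Ex, inside the WT range. Hbb-bh1, an embryonic beta globin, was 1562 to 6217 FPKM in WT (median 4068) and 2574, 1846 and 1661 in DKO_Ex, and Klf1, the erythroid transcription factor, was 3.53 to 14 and 4.69, 3.69 and 4.19. Only the adult-type globin gene Hbb-bs lay apart, at 22.8 to 54.0 (median 32.7) against 16.7, 15.4 and 6.70 (log2 fold change -1.43 ± 0.32, adjusted p = 0.369, limma). Both WT replicate 1 and WT replicate 2 were as low as DKO_Ex for Hbb-bh1.

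Among cell-state lists, proliferation genes had medians just below 0, at -0.02 for 28 DNA replication genes, -0.02 for 30 mitosis genes and -0.04 for 18 cyclins and Cdk inhibitors. Grouped by the records these medians were 0.03, 0.06 and 0.13. After rescaling to a total without abundant genes and pseudogenes they were 0.12, 0.11 and 0.08, where the median of all genes was 0.16. Cenpf, a kinetochore protein, lay apart as higher at 17.8 to 20.4 FPKM in WT (median 18.8) and 28.3, 23.1 and 38.2 in DKO_Ex (log2 fold change 0.61 ± 0.14, adjusted p = 0.431, limma). The p53 and apoptosis list had a median of 0.12 over 28, with the death receptors Eda2r and Tnfrsf10b apart as higher at levels below 4 FPKM.

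Cholesterol synthesis had a median of 0.33, with 20 of 24 genes above 0 and 3 apart, all higher. Fdft1, squalene synthase, was 14.6 to 29.4 FPKM in WT (median 23.0) and 35.3, 34.0 and 29.8 in DKO_Ex (log2 fold change 0.57 ± 0.23, adjusted p = 0.871, limma). Dhcr7, which makes cholesterol from its last precursor, was 17.4 to 37.1 (median 29.1) and 44.6, 38.9 and 37.2, and Hsd17b7, a sterol ketoreductase, was 3.42 to 6.58 (median 6.16) and 10.2, 7.64 and 7.26. The list level split the WT samples into replicates 1 to 3 and 4 to 6, which also differ in sex-linked transcripts. In WT replicates 1 to 3, in which Y-linked Ddx3y was 8.47 to 9.45 FPKM, it was 4.85 to 5.04, and in WT replicates 4 to 6, in which Xist was 86.3 to 121 FPKM, it was 4.21 to 4.39. DKO_Ex replicate 1, with Ddx3y at 10 FPKM, had 5.21, and DKO_Ex replicates 2 and 3, with Xist at 109 and 88.9 FPKM, had 4.83 and 4.75. In WT, sex cannot be told apart from anything else that replicates 1 to 3 or 4 to 6 share. Only 1 DKO_Ex sample stands in the class with Ddx3y, and the part of sex in the result was not tested. The median was 0.45 with Xist as a covariate, 0.06 with 0 apart when the columns were grouped by their records, and 0.18 without DKO_Ex replicate 1, the lowest of the fits that left out a sample, which reached 0.44. In DKO_CD Mb, whose columns are those of the grouping by the records, the level was 4.53 to 4.79.

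Hspa8, the constitutive Hsc70 chaperone, split the WT samples between the same replicates but in the opposite direction. It was 131 to 145 FPKM in WT replicates 1 to 3, 245 to 309 in WT replicates 4 to 6, and 456, 505 and 513 in DKO_Ex (log2 fold change 1.31 ± 0.28, adjusted p = 0.336, limma). With Xist as a covariate it passed, at 1.17 and an adjusted p of 0.0459, the lowest of its 24 alternatives, which reached 0.774. It was 392 to 541 in DKO_CD Mb, 312 to 531 in TKO Mb and, in Fb, 121 to 281 in WT and 341 to 564 in DKO_Ex. The rest of the 12 heat shock genes had log2 fold changes of -0.07 to 0.36, and the list median was 0.05. The list level, Hspa8 included, was 6.47 to 6.63 in WT, 6.69 to 6.75 in DKO_Ex and 6.59 to 6.84 in DKO_CD Mb. Very long chain fatty acid elongation, the list with Tecr, had a median of 0.19, with 9 of 11 genes above 0. Its level, Tecr included, was 4.11 to 4.39 in WT, 4.48 to 4.53 in DKO_Ex and 4.38 to 4.56 in DKO_CD Mb. Tecr was the only 1 of the 11 genes apart. A level without Tecr was not computed, so this level says nothing separate about the other members.

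Glycolysis and hypoxia genes had a median of 0.10 and 3 of 32 apart, all higher. Vegfa, the vessel growth factor, was 23.1 to 41.2 FPKM in WT (median 29.5) and 51.4, 53.9 and 47.8 in DKO_Ex (log2 fold change 0.71 ± 0.19, adjusted p = 0.509, limma), and 28.7 to 36.3 in DKO_CD Mb. Hk2, the hexokinase induced by hypoxia, was 21.4 to 39.0 and 41.4, 46.9 and 51.9, with 13.7 to 32.3 in DKO_CD Mb. For Vegfa and Hk2 the DKO_Ex samples thus lay above the WT and DKO_CD samples, but the direct differences of 0.65 and 0.94 from DKO_CD did not pass (adjusted p = 0.418 and 0.760). TKO Mb was not compared for these genes. In one-carbon and folate metabolism, where defects are a known cause of open neural tubes, the median was 0.09 over 24 genes. In this list 2 genes (8.33%) lay apart as higher and 1 (4.17%) as lower. The 2 higher ones were Gcsh of the glycine cleavage system (27.3 to 50.8 against 70.3, 66.4 and 67.6) and the folate carrier Slc19a1 (7.5 to 13.5 against 19.4, 17.3 and 13.6). Neither passed (adjusted p = 0.501 and 0.739, limma), and Gcsh lies on chromosome 8.

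Ribosomal protein and respiratory chain genes had medians just below 0. Of 79 cytosolic ribosomal protein genes, 65 were below 0, with a median of -0.06, and of 80 nuclear subunits of the respiratory chain, 62 were below 0, with a median of -0.08. FPKM is relative to the library total. When the values were rescaled to a total without abundant genes and pseudogenes, the median of all genes moved to 0.16 and those of the ribosomal and respiratory lists to 0.08 and 0.06, which is above 0 but still under the median of all genes. Only 4 of the ribosomal protein genes were left after that rescaling, which removes abundant genes, so the median of 0.08 is not one of the same list, whereas all 80 respiratory chain genes were left. Grouped by the records, the medians were 0.08 over 79 and 0.11 over 80 genes. The mitochondrially encoded genes had a median of 0.15 with 11 of 13 above 0.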

How the data were processed

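The series holds RNA-seq of E9.5 mouse Fb and Mb, 32 samples, from total RNA in directional libraries read for 101 cycles on Illumina HiSeq. The authors' processing notes name TopHat2, Cufflinks, HTSeq and DESeq2 and the build GRCm38 (mm10), and the authors deposited 1 column of FPKM values per sample, used as the unit here. Counts were not analysed here. Each table has 48641 rows, and 65 repeated identifiers were summed. Of 48576 identifiers, 48218 were found in GENCODE M21. Columns were assigned by their headings, which in 12 DKO columns name the other DKO group than the record.

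Genes averaging 1 FPKM or more in the samples compared were tested with limma 3.58.1 (R 4.3.3, empirical Bayes with a variance trend over the mean) on log2(FPKM + 1), with Benjamini-Hochberg adjustment and a threshold of 0.05. Fold changes on this scale understate those of low genes. Nothing says that the samples come from separate embryos or litters, so p-values measure the spread between these samples. The script was tested on simulated data. Depth was estimated from the smallest FPKM steps of 771 single-transcript genes, whose values were whole fragments within 0.1 for 88.4% to 92.4% in these samples. Pseudogenes were aligned to coding sequences with BLAST 2.17.0, and other steps used Python 3.11.15, pandas 2.3.3, NumPy 2.4.6 and SciPy 1.17.1. A list level is the mean log2(FPKM + 1) of its tested members. Named genes were all past the threshold, 6 genes of interest (Cdh6, Cdh8, Cdh11, Cdh1, Cdh2, Fgf15), the 10 of smallest p on each side that did not pass, and up to 4 members apart in each direction per list, or else its first 2 tested. The members and lists were chosen with earlier results of these data known. En1, Pax5, Otx2, Hoxb1, Hoxa2, Hoxb2, Hbb-bh1, Klf1, Csf1r, Adgre1 and the sex-linked genes were named outside this rule, after their values were seen. Leaving out chromosome 14 was also an alternative added after seeing the data. Gins2, Cdt1, Mvd, Tubb3, Foxc2, Ahsp and Cdh15 were not analysed here, and 2 further genes that the rule named are not reported here. Alternatives were other pseudocounts, filters, scalings, groupings, covariates and leaving out each sample.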

Additional observations from a re-analysis of the deposited data

Results flagged for a closer look

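Among 156 groups of 4 to 10 samples screened, 8 had 1 sample whose gap to its nearest neighbour exceeded 0.625 of the group's range, and chance gives about 1 in 20. All 8 were WT Mb samples, none a DKO_Ex sample, since groups of 3 were not screened. In WT replicate 1, the histone gene Hist2h2ac was 10.6 FPKM with the next sample at 4.76, Eya1, a placode and muscle factor, 8.14 with the next at 4.67, and Pdia6, a protein disulphide isomerase, 197 with the next at 173. In WT replicate 5, the forebrain factor Lhx2 was 9.05 FPKM with the next at 2.86, and Hsd17b7 was 3.42 with the next at 5.57. In WT replicate 3, Aldh1a3, an enzyme of retinoic acid synthesis in the eye, was 7.23 FPKM with the next at 1.17. The mean level of the exencephaly genes was 4.27 in WT replicate 6 with the next at 4.42, and that of the immediate early genes 2.82 in WT replicate 2 with the next at 2.65, both in log2(FPKM + 1).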

How the results depend on the processing

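The count of 12 genes in DKO_Ex against WT Mb was 8 to 17 under other pseudocounts, filters and scalings, the model without a trend, the fit of all 4 Mb groups, Xist as a covariate, and leaving out chromosomes 8 and 15 or chromosome 14, with 3 to 11 higher. It was 5 after rescaling without abundant genes and pseudogenes (4 of the 12 kept), 5 when columns were grouped by their records instead of their headings (2 kept) and 4 with protein-coding genes only. Grouping by the records sets the columns headed as DKO_CD against WT. Leaving out 1 sample gave 3 to 14, with 3 without DKO_Ex replicate 3, 6 without WT replicate 4 or DKO_Ex replicate 1 and 7 without WT replicate 3, WT replicate 6 or DKO_Ex replicate 2. With replicate number as a block the count was 1, not among the 12, but the numbers are shared only by name, since the deviations of same-numbered WT and DKO_Ex samples correlated at -0.01, -0.012 and -0.007. DKO_Ex against DKO_CD Mb gave 6 genes, 3 with a pseudocount of 5, 1 with the replicate block and 1 to 10 when a sample was left out (1 without DKO_Ex replicate 3 or DKO_CD replicate 2, 3 without DKO_Ex replicate 1 or 2, 10 without DKO_CD replicate 1). The interaction gave 0 genes, 1 with the replicate block, 1 by the records and 0 to 1 when a sample was left out. The cause of these changes was not tested, beyond the smaller number of samples or genes. Without the filter, 11 of 17 calls were higher, against 4 of 12.

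Log2 fold changes of genes that had not passed the threshold changed sign as follows. Grouped by the records they were Cdh6 -0.31, Dlg4 -0.17, Cdh5 -0.05, Hbb-bs 0.77, Cd68 0.21, Eya1 0.07, Pax6 -0.30, Nkx6-2 -0.10, Nectin1 -0.27, Pcdh1 0.07, Pcdh7 0.11, Gas1 0.06, Hes6 0.09, Cenpf -0.03, Hk2 -0.41, Fdft1 -0.02, Dhcr7 -0.03, Lin28a -0.55, Igf2 0.41, Ndufb9 0.11. After the rescaling they were Cd68 0.01, Pcdh1 0.05, Lin28b 0.09, Igf2 0.11, where the median of all genes was 0.16. With the replicate block they were Cdh1 -0.09, Cd68 0.20, Gbx2 -0.03, Lin28a -0.11, and with median-of-ratios scaling Lin28a -0.02. Ranges when a sample was left out were Cdh6 -0.10 to 0.17, Cdh1 -0.05 to 0.16, Cdh5 -0.01 to 0.30, Cd68 -0.46 to 0.12, Laptm5 -0.04 to 0.66, Pax6 -0.15 to 0.42, Gbx2 -0.10 to 0.52, Vangl1 -0.08 to 0.57, Lin28a -0.10 to 0.11, Lin28b -0.16 to 0.02, Igf2 -0.10 to 0.05. The cause was not tested. In all, 2260 of 2426 alternative values of the named genes kept direction and side of the threshold, 97 belonged to the 12 genes and lost the call, and 19, of 11 other genes, gained one. The depth limits genes near 1 FPKM, where a few fragments set the value.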
